A study of Mus musculus with 22 samples.

Results

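The collagen genes of the mouse, other than Col4a1 and Col4a2, which encode the main basement membrane chains, were followed through 22 pools of whole embryos. They were chosen by name alone, as the protein-coding genes whose symbol is Col, a number, the letter a and a number. In all, 41 of the 37680 gene IDs in the count table, among 22379 protein-coding ones, met the rule. The pools came from C57BL/6 embryos of genotype ROSA26tg/+; Oct4tg/+ (the Oct4 line) or ROSA26tg/+; Nanogtg/+ (the Nanog line), in which doxycycline induces the named factor, and each pool held 8 to 12 embryos at E7.5 or 3 embryos at E9.5. Induced E7.5 embryos came from mothers injected with doxycycline at E4.5 and then given it to drink, induced E9.5 embryos from mothers that drank it from E6.5, and control embryos, which carry the same transgenes, from mothers given none. There were 3 control and 3 induced pools of the Oct4 line at each stage, and 2 control and 3 induced pools of the Nanog line at each stage. No group received doxycycline without a transgene, so the drug and the factor cannot be told apart.

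Collagens are secreted or membrane-bound proteins whose chains are wound into a triple helix. Fibrillar collagens (types I, II, III, V, XI, XXIV and XXVII) assemble into the fibres of mesenchyme, cartilage and skin, FACITs (fibril-associated collagens) sit on their surface, and network, beaded filament, transmembrane and multiplexin collagens line basement membranes and cell surfaces. Because several types are built from products of different genes, the chains of one trimer are described together. Around gastrulation the embryo holds little fibrous matrix, and the head, trunk and somite mesenchyme that appears afterwards is its main source of fibrillar collagen.

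All 41 genes had counts in some pool, and 33 of them reached a mean of 1 CPM (a count scaled by TMM to the size of its library) in at least 1 group. After the filter on low counts, 34 were tested in at least 1 of the 4 inductions or 2 stage comparisons and 28 in all 4 inductions. The 7 that were tested in none were Col10a1, Col19a1, Col28a1, Col4a3, Col4a4, Col6a4 and Col6a6, whose highest group means lay between 0.0367 and 0.783 CPM. Library totals ran from 4716147 to 42323659 counts, and the 41 genes together took 0.0259% to 0.0627% of a library's counts at E7.5 and 0.148% to 0.212% at E9.5. Emid2, the gene RefSeq now calls Col26a1, carried its older symbol in the annotation and is not counted here; it was at 8.17, 7.01 and 9.62 CPM in the E7.5 and 77.0, 71.7 and 64.8 CPM in the E9.5 control pools of the Oct4 line.

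Among the members that fell together after Oct4 induction at E7.5 are a pair of genes that start beside each other. Col4a5 and Col4a6 lie head to head on chromosome X, 1308 bases apart (NCBIM37), and Col1a2 and Col5a1 are fibrillar chains of the same group. Windows of 250 bases before the gene start (RefSeq, GRCm38.p6) are printed for these 4 genes, 5′ to 3′ on the strand of the gene. They lie at chrX:141475169-141475418, plus strand for Col4a5, chrX:141474077-141474326, minus strand for Col4a6, chr2:27886175-27886424, plus strand for Col5a1 and chr6:4505368-4505617, plus strand for Col1a2. Capitals mark every match, on either strand, to any of 5 motifs. The octamer that Oct4 binds was searched as ATGCAAAT and the motif of Sox factors as ACAAAG. Of the common promoter elements, the CCAAT box was searched by those letters, the GC box as GGGCGG and, lastly, the TATA box of many tissue-specific genes as TATAAA.
Col4a5 upstream window: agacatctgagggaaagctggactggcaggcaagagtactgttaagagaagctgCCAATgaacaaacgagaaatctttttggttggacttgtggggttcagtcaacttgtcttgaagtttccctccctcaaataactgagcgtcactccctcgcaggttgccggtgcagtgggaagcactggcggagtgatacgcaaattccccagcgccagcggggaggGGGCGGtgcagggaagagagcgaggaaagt
Col4a6 upstream window: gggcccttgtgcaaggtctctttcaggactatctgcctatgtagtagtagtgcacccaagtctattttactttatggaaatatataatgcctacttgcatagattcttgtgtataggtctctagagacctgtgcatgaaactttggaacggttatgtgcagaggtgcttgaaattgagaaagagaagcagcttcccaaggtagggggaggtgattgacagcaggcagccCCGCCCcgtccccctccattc
Col5a1 upstream window: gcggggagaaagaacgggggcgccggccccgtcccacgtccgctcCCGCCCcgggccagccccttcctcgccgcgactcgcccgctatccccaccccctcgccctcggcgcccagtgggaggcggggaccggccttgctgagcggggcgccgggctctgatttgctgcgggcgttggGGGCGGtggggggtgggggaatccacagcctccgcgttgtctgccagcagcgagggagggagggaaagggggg
Col1a2 upstream window: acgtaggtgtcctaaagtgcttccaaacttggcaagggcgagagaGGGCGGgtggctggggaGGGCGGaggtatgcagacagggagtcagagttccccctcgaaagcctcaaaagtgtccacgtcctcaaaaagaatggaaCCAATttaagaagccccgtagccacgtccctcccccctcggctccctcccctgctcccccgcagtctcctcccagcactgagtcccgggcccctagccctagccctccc
The windows of Col4a5 and Col4a6 do not overlap each other, and GC content was 54% and 47.6% in them, against 76.4% for Col5a1 and 62% for Col1a2. All 4 hold GGGCGG or its reverse complement, which is in 32.7% of all 32851 windows of this length; CCAAT, in 33.8% of all windows, is in those of Col4a5 and Col1a2. Windows were found for 33 of the 41 members, 36 windows in all, and 21 of the 36 held a GC box. ATGCAAAT was in 2 of the 36, those of Col3a1 and Col25a1, and in 1.60% of all windows; ACAAAG was in 4 of the 36 (16.5% of all) and TATAAA in 5 (12.4% of all). A match to such letters is a description of the window only.

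Between E7.5 and E9.5 the level of most tested collagen genes rose in control embryos. Summed over the 41 genes, collagen transcripts stood at 539.8, 463 and 539 CPM in the E7.5 control pools of the Oct4 line and at 1936, 2008 and 1809 CPM in its E9.5 control pools, and in the Nanog line at 433 and 494 and then 1453 and 1426 CPM. In the Oct4 line 28 of 33 tested members were called higher at E9.5 and 2 lower (edgeR quasi-likelihood test, Benjamini-Hochberg adjusted p under 0.05 over all genes tested), where 36.5% of all genes tested were called higher and 37.1% lower. In the Nanog line 20 of 31 were called higher and 2 lower, against 31.8% and 32.0% of all genes. The median member changed by 1.68 on the log2 scale in the Oct4 line and 1.02 in the Nanog line, and the median of all genes by -0.017 and 0.0059. All 20 members called higher in the Nanog line were also called higher in the Oct4 line, which has 1 more control pool at each stage. Since the embryos are whole, more cells of a kind and more RNA per cell cannot be told apart, here or in any result that follows. The control pools of these stage comparisons are also the controls of the inductions. Library measures differed between the stages too. Genes shorter than 80 bases took 29.0 to 51.9 CPM in the E7.5 and 0.634 to 1.23 CPM in the E9.5 controls of the Oct4 line, and 31.3 to 36.8 and 1.42 to 1.70 CPM in those of the Nanog line. Mitochondrial genes took 4.07% to 5.51% and 2.38% to 2.43% of counts in the Oct4 line and 3.30% to 3.63% and 2.82% to 2.88% in the Nanog line. The measure of short genes splits with stage in both lines, so library difference and stage cannot be told apart. The part of these measures in the stage differences was not tested.

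At E7.5 1 of the 41 stood far above the rest per length. Length is that of all annotated exons of a gene merged, which can exceed the length of its transcripts, so the order of genes depends on it. Col18a1, a multiplexin of basement membranes whose tail fragment is endostatin, was at 34.9, 30.1 and 32.1 CPM per kilobase (kb) of exons in the Oct4 line controls, and the next, Col1a1, at 7.31, 7.00 and 8.85. By E9.5 Col18a1 was one of 3 near the top, at 44.5, 45.9 and 43.1 CPM per kb, with Col2a1, the chain of cartilage and notochord type II collagen, at 50.4, 47.8 and 44.3 and Col3a1, the chain of type III collagen in soft mesenchyme, at 45.9, 47.0 and 42.9. These ranges overlap, so their order is not resolved in the Oct4 line. In the Nanog line controls Col3a1 (37.9 and 37.1 CPM per kb) lay above Col2a1 (31.2 and 34.9) and Col18a1 (31.5 and 30.2), with 2 pools of each. Behind them, averaged over the 2 lines, came Col1a1, Col1a2 and Col5a2, at 17.7, 28.9 and 25.1, 16, 17.4 and 14.0 and 11.1, 10.5 and 9.30 CPM per kb in the Oct4 line pools.

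**Figure D1:**
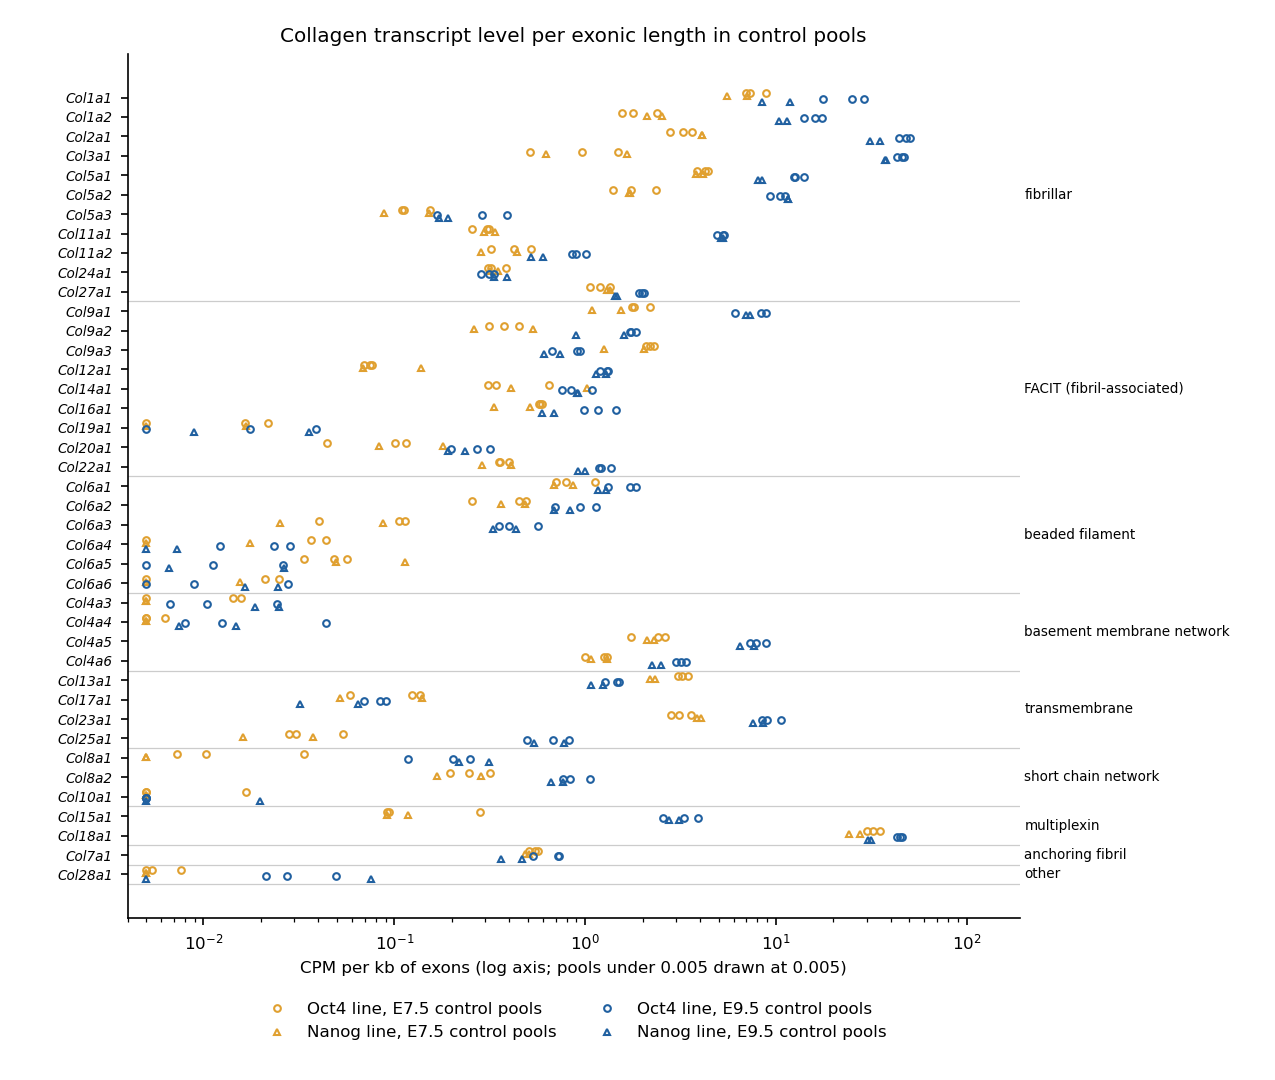
Level of each of the 41 collagen genes in every control pool, in CPM per kb of exons on a log axis, ordered by family; circles are Oct4 line pools, triangles Nanog line pools, yellow E7.5 and blue E9.5. Col3a1, Col2a1, Col11a1 and Col15a1 move far to the right by E9.5, Col18a1 is high at both stages, and Col9a3 and Col13a1 move left.

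Col3a1 rose the most of the tested members in the Oct4 line. Its E7.5 control pools held 8.06, 4.33 and 12.5 CPM and its E9.5 control pools 385, 394 and 359.7 CPM, a log2 change of 5.56 ± 0.41, adjusted p = 0.00024, and in the Nanog line 5.26 and 14.0 became 318 and 312 CPM (4.93 ± 0.39, adjusted p = 0.0063). The Nanog line call was lost when either E9.5 control pool was left out (adjusted p of 0.13 and 0.13), with log2 changes of 4.92 and 4.95. Its neighbour Col5a2, which lies tail to tail with it 24.6 kb away on chromosome 1, rose less, by 2.55 ± 0.19 in the Oct4 line and 2.73 ± 0.082 in the Nanog line. Per length, the ratio of Col3a1 to Col5a2 went from 0.543 ± 0.268 (SD, n = 3) to 4.41 ± 0.256 in the Oct4 line.

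Of the cartilage chains tested in the Oct4 line, Col2a1, Col11a1, Col11a2, Col9a1 and Col9a2 rose and Col9a3 fell. Col2a1 went from 22, 16.8 and 19.7 to 304, 288 and 267 CPM in the Oct4 line (3.93 ± 0.098, adjusted p = 4.4e-10), and Col11a1, a chain of the type XI collagen that nucleates cartilage fibrils, from 2.95, 2.48 and 3.02 to 51.7, 51.1 and 47.1 CPM (4.20 ± 0.10, adjusted p = 1.9e-10). Col11a2, whose product joins Col11a1 in type XI trimers, rose by 1.168 ± 0.20, and the ratio of Col11a1 to Col11a2 per length passed from 0.492 to 0.947 in the E7.5 pools to 5.26 to 5.97 in the E9.5 pools. Type IX collagen, a FACIT that coats cartilage fibrils, needs the products of Col9a1, Col9a2 and Col9a3. Col9a1 rose by 2.07 ± 0.14 and Col9a2 by 2.27 ± 0.21 in the Oct4 line, while Col9a3 fell, from 8.88, 8.44 and 7.99 to 2.60, 3.6 and 3.51 CPM (-1.32 ± 0.16, adjusted p = 2.3e-05). In the Nanog line Col9a3 also fell, from 7.82 and 4.86 to 2.34 and 2.84 CPM (-1.30 ± 0.30, adjusted p = 0.0017). The ratio of Col9a1 to Col9a3 was 0.781 to 1.05 in the E7.5 and 6.69 to 13.2 in the E9.5 controls of the Oct4 line.

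Col9a3 overlaps another gene. Of its exonic bases in the annotation, 234 (6.07%) lie within exons of Tcfl5 on the opposite strand, and whether the libraries keep strand is not given in the sources used here. The mean of Tcfl5 went over the same interval from 36.8 to 3.63 CPM in the Oct4 line controls and from 26.7 to 4.40 in those of the Nanog line. The part of Tcfl5 in the fall of Col9a3 was not tested. The other overlaps on opposite strands, at Col10a1, Col15a1, Col1a1, Col22a1 and Col5a1, each cover at most 1.66% of the collagen gene's exonic bases.

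Col13a1 was the other member called lower at E9.5 in both lines. Col13a1, a transmembrane collagen of cell contacts, went from 15.9, 14.2 and 14.8 to 6.96, 5.87 and 6.79 CPM in the Oct4 line (-1.15 ± 0.12, adjusted p = 6.5e-06) and from 10.1 and 10.8 to 4.93 and 5.73 CPM in the Nanog line (-1.0 ± 0.20, adjusted p = 0.00055). Of the other transmembrane collagens, Col25a1 rose by 4.15 ± 0.31 in the Oct4 line and 4.46 ± 0.48 in the Nanog line, and Col23a1 by 1.62 ± 0.11 and 0.99 ± 0.10, while Col17a1 was at 0.612 ± 0.242 and 0.468 ± 0.0611 CPM in the Oct4 line and was not called. Col15a1, the second multiplexin, rose by 4.5 ± 0.42 and 4.78 ± 0.26, and the FACIT Col12a1 by 4.17 ± 0.14 and 3.57 ± 0.25. Col8a1, a short chain collagen of vessel walls, had no counts in the Nanog line E7.5 controls and 1.60 and 1.11 CPM at E9.5, at least 6.92-fold higher against a floor of 3 counts over the group.

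Both chains of type I collagen rose in the Oct4 line, and in the Nanog line Col1a2 did. Col1a2 rose from 21.8, 19.0 and 29.0 to 194, 211 and 171 CPM in the Oct4 line (3.09 ± 0.17, adjusted p = 5.6e-06) and Col1a1 from 48.0, 45.9 and 58.1 to 116, 189.6 and 165 CPM (1.68 ± 0.20, adjusted p = 0.00061). In the Nanog line Col1a2 went from 25.7 and 30.8 to 139 and 126 CPM (2.18 ± 0.090, adjusted p = 3.0e-10) and Col1a1 was at 36.2 and 46.5 CPM at E7.5 and 77.8 and 55.8 CPM at E9.5 (0.64 ± 0.27, adjusted p = 0.14), short of the threshold. Of the 11 fibrillar genes 10 were called higher in the Oct4 line and 6 in the Nanog line. Type I trimers hold more of the Col1a1 chain than of the Col1a2 chain. The ratio of Col1a1 to Col1a2 transcripts per length was 4.09 ± 0.384 (SD, n = 3) at E7.5 and 1.52 ± 0.363 at E9.5 in the Oct4 line, and 2.61 to 2.80 and 0.820 to 1.04 over the 2 control pools of the Nanog line at each stage. The merged exons used as length hold 12145 bases for Col1a2 and 6563 for Col1a1, and the size of the ratio depends on them. In CPM, Col1a2 was above Col1a1 in every E9.5 control pool of both lines. A difference in transcript ratio between stages was not tested.

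The genes around collagen are given by the same calls, where 36.5% of all genes were called higher and 37.1% lower in the Oct4 line and 31.8% and 32.0% in the Nanog line. Of 17 tested genes of collagen folding in the endoplasmic reticulum, 5 rose and 5 fell between stages in the Oct4 line and 3 rose and 7 fell in the Nanog line. Of the processing and cross-linking genes outside the cell, 9 of 13 rose and 2 fell in the Oct4 line, and 7 of 11 rose and 2 fell in the Nanog line. Collagen receptors rose in 7 of 8 tested in each line (1 fell in the Oct4 line), and all 7 tested cartilage and sclerotome regulators rose in the Oct4 line, with 5 of 5 in the Nanog line. Mesenchyme markers rose in 6 of 7 and fell in 1 in the Oct4 line, while 6 of 6 visceral endoderm markers, which belong to the yolk sac, fell in each line. The mesenchyme count of the Nanog line is not given here. The E7.5 pools also held transcripts of decidual stroma of the mother, given below, and the part of that tissue in the stage differences was not tested.

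**Figure D2:**
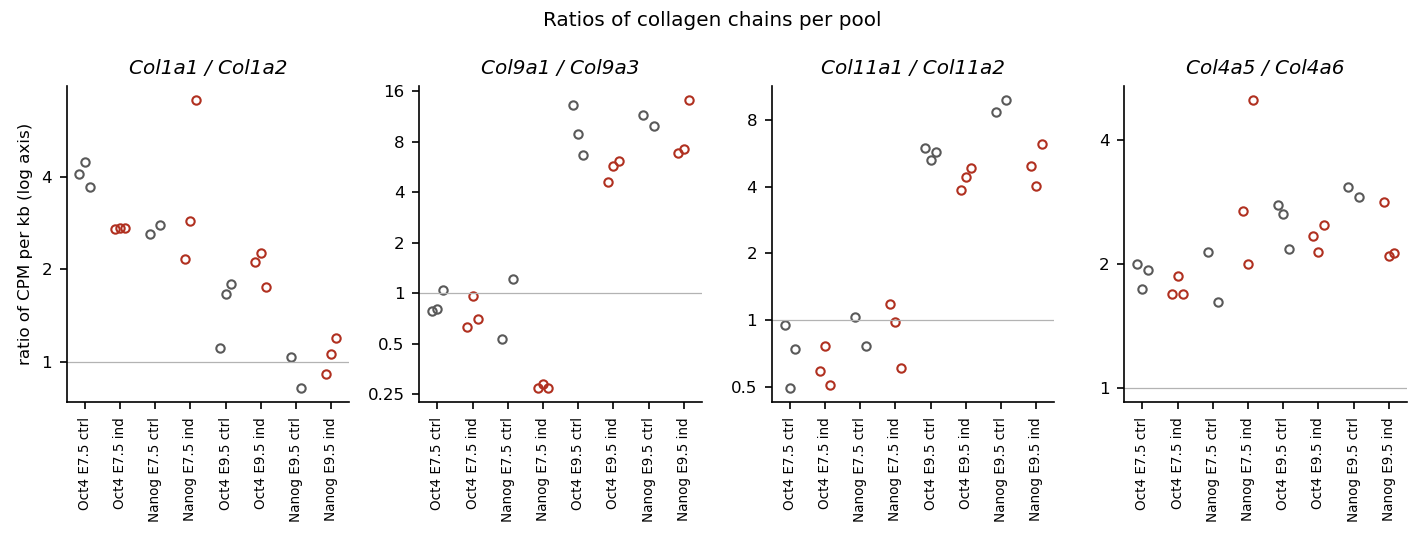
Ratio of the levels per kb of exons of 4 pairs of collagen chains, on log axes, in every pool of the 8 groups (grey control, red induced; ctrl and ind stand for control and induced). Col9a1 over Col9a3 and Col11a1 over Col11a2 are higher in all E9.5 than in all E7.5 pools, Col1a1 over Col1a2 is highest in 1 induced Nanog E7.5 pool, and Col4a5 over Col4a6 lies between 1.61 and 4.98 throughout.

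Collagen transcripts were lower after Oct4 induction at E7.5. Of 33 tested members 9 were called lower and 0 higher (0 higher also by DESeq2; 14 members had an unadjusted p under 0.05, in either direction), beside 3.91% of all genes called lower and 2.25% called higher. The median member changed by -0.48 on the log2 scale, with 29 of 33 below 0, where the median of all genes was 0.016. By family, 5 of the 11 fibrillar genes, both tested basement membrane chains, 1 FACIT and 1 beaded filament gene were called lower. The sum over the 41 genes was 539.8, 463 and 539 CPM in control and 414, 308 and 352 CPM in induced pools. Every induced pool lay below every control pool.

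Type I collagen fell in both of its chains. Col1a1 was at 48.0, 45.9 and 58.1 CPM in the 3 control pools and 18.4, 15.6 and 19.0 CPM in the 3 induced pools. Col1a2 was at 21.8, 19.0 and 29.0 CPM in controls and 12.6, 10.6 and 12.9 CPM after induction. The groups did not overlap for either chain, and the log2 changes were -1.5 ± 0.13, adjusted p = 0.00042 for Col1a1 and -0.93 ± 0.17, adjusted p = 0.014 for Col1a2. The ratio of the chains per length was 3.70 to 4.47 in control and 2.70 to 2.73 in induced pools.

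The head-to-head genes Col4a5 and Col4a6, whose products join in basement membranes of epithelia and smooth muscle, both fell. Control pools held 17.6, 11.6 and 16.2 CPM of Col4a5 and induced pools 5.81, 3.44 and 4.76 CPM, a change of -1.66 ± 0.23, adjusted p = 0.0032. For Col4a6 the values were 10.5, 7.95 and 10.01 CPM in control and 4.09, 2.19 and 3.36 CPM in induced pools (-1.52 ± 0.23, adjusted p = 0.0056). Their ratio per length was 1.74 to 2.0 in control and 1.69 to 1.87 in induced pools. The excluded main chains of the same network, Col4a1 and Col4a2, moved by -0.19 ± 0.098, adjusted p = 0.38 and -0.27 ± 0.094, adjusted p = 0.15, short of the threshold.

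Among the remaining fibrillar chains, Col5a1, which starts and limits type I fibrils, was at 36.0, 32.7 and 37.4 CPM in control and 19.3, 13.7 and 16.8 CPM in induced pools (-1.06 ± 0.14, adjusted p = 0.0026). Its partner in type V trimers, Col5a2, stood at 22.6, 13.4 and 16.7 CPM in control and 11.5, 9.70 and 10.4 CPM in induced pools and did not pass the threshold (-0.71 ± 0.19, adjusted p = 0.060), nor did Col5a3 (-0.11 ± 0.36, adjusted p = 0.93). Every induced value of Col5a2 was below every control value. Col2a1 fell from 22, 16.8 and 19.7 to 12.7, 6.33 and 9.48 CPM (-1.01 ± 0.23, adjusted p = 0.037), while its cartilage partners Col11a1 (-0.28 ± 0.22, adjusted p = 0.61) and Col11a2 (-0.072 ± 0.29, adjusted p = 0.94) did not pass. Col24a1, a minor fibrillar collagen of bone and cornea, fell from 2.95, 2.37 and 2.44 to 1.12, 0.876 and 1.53 CPM (-1.12 ± 0.26, adjusted p = 0.034).

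Lower down, the FACIT Col16a1 was called lower (-0.82 ± 0.16, adjusted p = 0.018), from 3.93 ± 0.0870 to 2.19 ± 0.0491 CPM. Col6a5, a minor chain of type VI collagen, had 12, 11 and 20 counts in the control and 2, 1 and 1 counts in the induced pools (-3.13 ± 0.52, adjusted p = 0.0068), so its fold change rests on few reads. The main type VI chains Col6a1, Col6a2 and Col6a3 changed by -0.85, -0.48 and -0.016, none past the threshold. Col18a1 was at 245, 211 and 226 CPM in control and 222, 148 and 184 CPM in induced pools, with overlapping groups (-0.27 ± 0.14, adjusted p = 0.40). In every fit with 1 pool left out, 4 of the 9 calls were kept (Col1a1, Col4a5, Col4a6 and Col5a1), and the count fell to 5 without control replicate 1 and 4 without control replicate 3.

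Some markers of mesenchyme, somites and endothelium were called lower in the same pools, where 3.91% of all genes were called lower and 2.25% higher. Of 7 tested mesenchyme markers, 6 were called lower, among them Pdgfrb (-1.80 ± 0.17, adjusted p = 0.00058) and Snai2 (-1.90 ± 0.22, adjusted p = 0.0016), and their summed level was 205 to 252 CPM in control and 135 to 142 CPM in induced pools. Of 5 tested regulators of sclerotome and cartilage, 3 were called lower and 0 higher: Pax9 (-2.29 ± 0.26, adjusted p = 0.0016), Sox6 (-1.24 ± 0.28, adjusted p = 0.032) and Sox9 (-0.74 ± 0.19, adjusted p = 0.049), the direct activator of Col2a1. Of 5 tested somite markers 2 fell, Meox1 (-4.60 ± 0.29, adjusted p = 0.00018) and Tcf15 (-2.53 ± 0.32, adjusted p = 0.0023), and 4 of 6 endothelial markers fell. Twist1 was at 27.1, 20.7 and 20.9 CPM in control and 17.2, 18.3 and 20.3 CPM in induced pools and was not called. The part of these cells in the collagen values was not tested.

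Among tissues around the embryo proper, 2 of 6 parietal endoderm markers and 1 of 4 tested trophoblast markers were called lower, and 0 of 6 visceral endoderm markers were called by edgeR. Of all genes, 3.91% were called lower and 2.25% higher. Decidual stroma markers of the mother summed to 93.6 to 159.8 CPM in control and 129 to 161 CPM in induced pools, with 0 of 6 called by edgeR, and 3 of 8 markers of maternal blood and natural killer cells rose, with sums of 9.26 to 17.0 and 17.1 to 30.4 CPM. Of 6 notochord and node markers 2 rose and Shh fell (-3.80 ± 0.27, adjusted p = 0.00024). Their part in the collagen values was not tested either.

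The genes that fold, process and break down collagen moved in part, where 3.91% of all genes were called lower and 2.25% higher. In the endoplasmic reticulum, 3 of 16 tested genes fell and 0 rose: Serpinh1, the collagen chaperone Hsp47 (-0.50 ± 0.085, adjusted p = 0.0092), P4ha2, a prolyl hydroxylase subunit (-0.73 ± 0.12, adjusted p = 0.0079), and Leprel4 (-0.47 ± 0.11, adjusted p = 0.032). Outside the cell, 4 of 13 fell and 0 rose, among them Adamts2, which removes the amino-terminal propeptide of type I procollagen (-1.06 ± 0.21, adjusted p = 0.021), its relative Adamts3 (-0.51 ± 0.12, adjusted p = 0.044), Pcolce, an enhancer of carboxy-terminal propeptide removal (-0.75 ± 0.17, adjusted p = 0.038), and the cross-linking oxidase Loxl1 (-1.45 ± 0.29, adjusted p = 0.020). Of 8 tested collagen-degrading proteases and inhibitors, 3 fell, including the gelatinase Mmp2 (-0.99 ± 0.14, adjusted p = 0.0036) and the inhibitor Timp2 (-1.01 ± 0.14, adjusted p = 0.0032), and Timp3 rose (0.49 ± 0.12, adjusted p = 0.046). Of 6 tested collagen receptors, the integrin chain Itga1 rose (1.21 ± 0.20, adjusted p = 0.0077) and 0 fell, and of 11 collagen-binding matrix proteins only Fbn1 was called, lower (-1.05 ± 0.18, adjusted p = 0.0089).

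**Figure D3:**
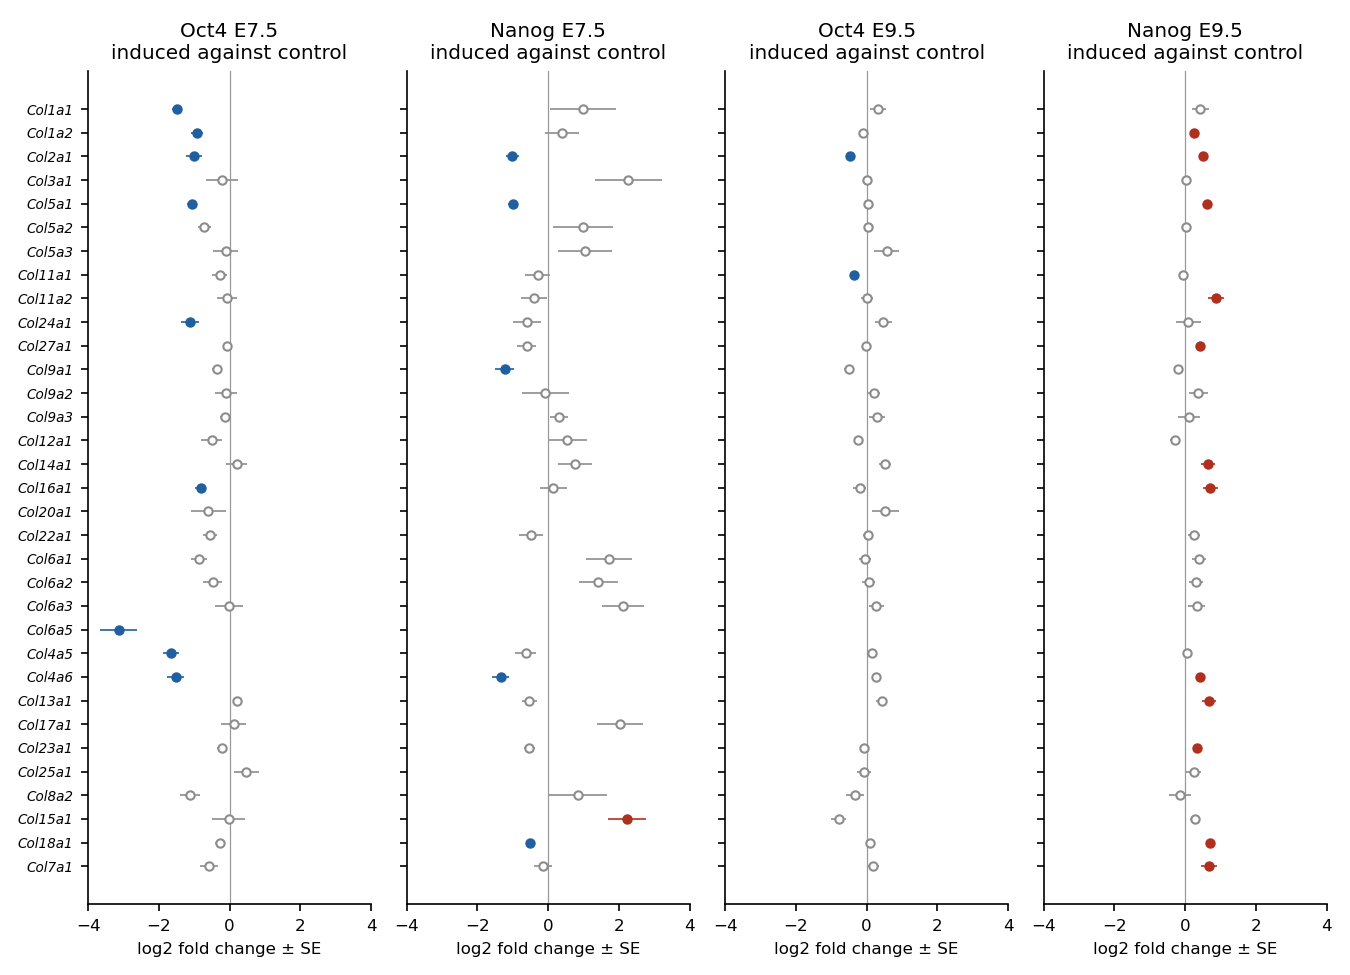
Log2 fold change, induced against control, with its standard error, of every tested collagen gene in the 4 inductions; filled points passed an adjusted p of 0.05 (blue lower, red higher), open points did not, and a gene with no point was not tested there. The filled points are 9 lower for Oct4 at E7.5, 5 lower and 1 higher for Nanog at E7.5, 2 lower for Oct4 at E9.5 and 12 higher for Nanog at E9.5.

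In embryos with induced Nanog at E7.5, Col5a1, Col4a6, Col2a1, Col9a1 and Col18a1 were lower and Col15a1 was higher. Of 30 tested members 5 were called lower and 1 higher, beside 4.82% of all genes called lower and 2.96% called higher. The median member changed by 0.036 and the median gene by 0.0034. Col5a1 was at 32.5 and 35.0 CPM in the 2 control pools and 17.2, 17.6 and 16.3 CPM in the 3 induced pools (-1.0 ± 0.12, adjusted p = 0.0024). Col4a6 was at 8.57 and 10.4 CPM in control and 3.94, 4.16 and 3.2 CPM in induced pools (-1.34 ± 0.24, adjusted p = 0.012), and its neighbour Col4a5 at 15.3 and 14.1 CPM in control and 8.90, 6.97 and 13.4 CPM in induced pools (-0.63 ± 0.29, adjusted p = 0.22), short of the threshold. The groups did not overlap for any of the 3 genes.

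Both called cartilage chains were lower in every induced pool than in either control pool. Col2a1 went from 24.7 and 24.7 to 12.5, 15 and 9.44 CPM (-1.01 ± 0.18, adjusted p = 0.012) and Col9a1 from 5.57 and 7.86 to 2.75, 2.94 and 3.05 CPM (-1.23 ± 0.28, adjusted p = 0.030). Col9a2 (-0.076 ± 0.66, adjusted p = 0.96) and Col9a3 (0.31 ± 0.26, adjusted p = 0.52) did not pass. Col18a1 fell from 170.1 and 194 to 114, 147 and 130.2 CPM (-0.50 ± 0.11, adjusted p = 0.024), and the other multiplexin, Col15a1, rose from 0.752 and 0.578 to 1.83, 3.57 and 4.21 CPM (2.23 ± 0.53, adjusted p = 0.034). Of these 6 calls 0 were kept in every fit with 1 pool left out: 0 were made without control replicate 3 and 1 without control replicate 2. With the spread shared over all 22 libraries the count was 14 (6 higher, 8 lower), and against the Oct4 line controls 11 (5 higher, 6 lower).

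The induced Nanog pools at E7.5 stood apart from each other in the collagens of connective tissue. Col1a1 was at 58.6, 33.1 and 161 CPM in induced replicates 1, 3 and 4 and at 36.2 and 46.5 CPM in the controls. Col3a1 was at 52.9, 19.5 and 72.6 CPM against 5.26 and 14.0, and Col6a1 at 13.6, 4.75 and 16.7 CPM against 3.01 and 3.82. Replicate 3 was the lowest of the 3 induced pools for each of these genes and replicate 4 the highest. None passed the threshold, with log2 changes of 1.0 ± 0.93, adjusted p = 0.61 for Col1a1, 2.27 ± 0.94, adjusted p = 0.28 for Col3a1 and 1.73 ± 0.66, adjusted p = 0.19 for Col6a1. The same held for Col6a2 (1.42 ± 0.55, adjusted p = 0.19) and Col6a3 (2.11 ± 0.59, adjusted p = 0.060), and Col5a2 was at 27.6, 13.3 and 59.6 CPM after induction against 16.4 and 16.3 (1.0 ± 0.85, adjusted p = 0.57).

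**Figure D4:**
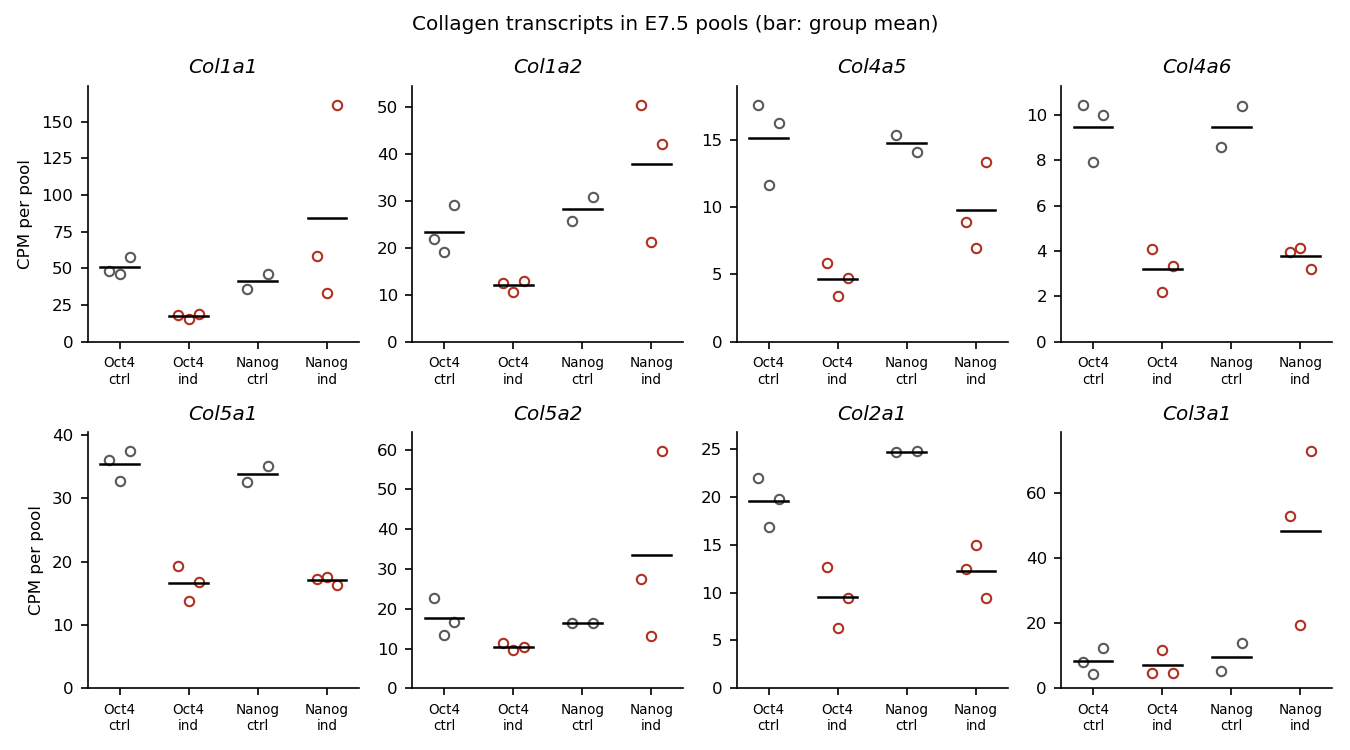
CPM of 8 collagen genes in each E7.5 pool (grey control, red induced, ctrl and ind on the axis; bars are group means, each axis starts at 0). Col1a1, Col4a5, Col4a6 and Col5a1 are lower in every Oct4 induced pool than in every Oct4 control pool, and the Nanog induced pools spread widely for Col1a1, Col5a2 and Col3a1.

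Transcripts of uterine stroma also varied over those pools. The E7.5 pools of all 4 groups held Prl8a2, a hormone gene of decidual stroma, at 50.3 to 244 CPM. Hoxa11, a homeobox gene active in uterine stroma and also in limb buds, was at 8.07, 10.3 and 29.9 CPM in the Nanog induced pools and 6.77 and 3.47 CPM in their controls, and Esr1, the oestrogen receptor gene, at 4.59, 5.08 and 12.3 against 1.65 and 1.97 CPM. Replicate 4, with the most Col1a1, had the most Hoxa11 and Esr1, while Prl8a2 was highest in replicate 3 (95.9, 244 and 50.3 CPM in replicates 1, 3 and 4). The other decidual markers of the list, Prl3c1, Pgr and Cryab, are not given by pool, so these genes do not give the order of the pools for the list. Summed over the 6 decidual markers the range was 87.2 to 130.4 CPM in control and 114 to 326 CPM in induced pools, and 0 of the 6 were called in either direction by edgeR. Of 7 tested mesenchyme markers 5 were called lower, where 4.82% of all genes were. Their sum was 246 to 249.8 CPM in control and 115 to 129 CPM in induced pools. Genes shorter than 80 bases took 0.575 to 1.13 CPM in these 3 induced libraries and 31.3 to 36.8 CPM in their 2 controls. Mitochondrial genes took 5.27% to 8.26% of counts in the induced libraries, the most in replicate 4, and 3.30% to 3.63% in the controls. Both library measures split with condition, so library difference and induction cannot be told apart in the Nanog comparison at E7.5, its 6 calls included. The part of decidual tissue, of mesenchyme or of library preparation in these collagen values was not tested.

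Of the collagen machinery, the Nanog induced E7.5 pools had less Serpinh1 (-0.93 ± 0.14, adjusted p = 0.0076) and Leprel1 (-0.80 ± 0.19, adjusted p = 0.047), 2 of 15 tested endoplasmic reticulum genes, with 0 higher. In this comparison 4.82% of all genes were called lower and 2.96% higher, which also stands beside the counts that follow. Lox, a cross-linking oxidase, rose (2.31 ± 0.46, adjusted p = 0.021) from 2.11 and 0.925 to 10.5, 5.67 and 6.10 CPM and Loxl2 fell (-0.72 ± 0.14, adjusted p = 0.022). Itga1 rose (1.13 ± 0.24, adjusted p = 0.026), as did the inhibitor Timp3 (1.24 ± 0.23, adjusted p = 0.022), and the fibrillin Fbn2 (-1.42 ± 0.15, adjusted p = 0.0013) and fibronectin Fn1 (-0.70 ± 0.13, adjusted p = 0.017) fell. Of the tissues around the embryo proper, 4 of 6 visceral endoderm, 2 of 6 parietal endoderm and 1 of 6 endothelial markers were called lower, and of 4 tested trophoblast markers Elf5 rose (1.47 ± 0.19, adjusted p = 0.0067). Of 3 tested somite markers Meox1 (-4.45 ± 0.26, adjusted p = 4.2e-05) and Tcf15 (-2.28 ± 0.46, adjusted p = 0.018) fell. Sox6 (-3.02 ± 0.59, adjusted p = 0.015) and Pax9 (-2.74 ± 0.60, adjusted p = 0.026) were called lower among 4 tested cartilage and sclerotome regulators.

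The difference between the responses of the 2 lines at E7.5 was tested as an interaction over the 4 groups. Genes shorter than 80 bases took 31.3 to 36.8 CPM in control and 0.575 to 1.13 CPM in induced pools of the Nanog line. In the Oct4 line they took 29.0 to 51.9 CPM in control and 30.7 to 38.8 CPM in induced pools. Library difference and factor therefore cannot be told apart in this interaction, and the part of each was not tested. None of 35 tested members passed (edgeR; 2 in a model over all 22 libraries), 14 had an unadjusted p under 0.05, and 0.204% of all genes were called. Of the genes described above, Col1a1 differed by -2.51 ± 0.83, adjusted p = 0.37, Col3a1 by -2.5 ± 1.05, adjusted p = 0.49 and Col15a1 by -2.28 ± 0.80, adjusted p = 0.34 on the log2 scale, as Oct4 minus Nanog. For Col5a1 the difference was -0.074 ± 0.18 and for Col4a6 -0.20 ± 0.34. Between the controls of the lines none of 33 tested members was called at this stage (0 by edgeR and by DESeq2, 5 with an unadjusted p under 0.05; 7.05% of all genes called).

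At E9.5 the cartilage chains Col2a1 and Col11a1 were lower after Oct4 induction. The sum of the 41 genes was 1936, 2008 and 1809 CPM in control and 1887, 1879.5 and 1795 CPM in induced pools. Of 31 tested members 2 were called lower and 0 higher (0 higher also by DESeq2; 9 with an unadjusted p under 0.05 in either direction), beside 4.61% of all genes lower and 4.69% higher, and the median member changed by 0.033 against 0.0022 for all genes. Col2a1 was at 304, 288 and 267 CPM in control and 209.5, 200.5 and 201 CPM in induced pools (-0.47 ± 0.044, adjusted p = 1.5e-06), and Col11a1 at 51.7, 51.1 and 47.1 CPM in control and 39.0, 35.4 and 39.4 CPM in induced pools (-0.37 ± 0.068, adjusted p = 0.0016). Neither gene's groups overlapped, and both calls were kept whichever pool was left out; without control replicate 3 the count rose to 6. A model over all 22 libraries, with 1 shared estimate of the spread, called 0 members, DESeq2 called 4 (all lower) and the fit without a filter on low counts 6 (2 higher, 4 lower).

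The other cartilage chains did not pass the threshold. Col9a1 was at 45.5, 42.6 and 31.3 CPM in control and 26.1, 31.3 and 28.0 CPM in induced pools (-0.50 ± 0.14, adjusted p = 0.073), Col9a2 changed by 0.20 ± 0.17, adjusted p = 0.54 and Col11a2 by 0.013 ± 0.17, adjusted p = 0.98. Col15a1 stood at 24.8, 20.9 and 16.2 CPM in control and 14.9, 9.58 and 9.69 CPM in induced pools (-0.80 ± 0.21, adjusted p = 0.055). Of 6 tested cartilage and sclerotome regulators Sox6 was called, lower (-0.32 ± 0.084, adjusted p = 0.021), where 4.61% of all genes were called lower and 4.69% higher. Of 5 tested notochord and node markers, a tissue that makes type II collagen, Shh (-0.73 ± 0.12, adjusted p = 0.00040) and Foxa2 (-0.85 ± 0.18, adjusted p = 0.0055) were called lower and 0 higher, and somite markers Meox1 (0.45 ± 0.071, adjusted p = 0.00074) and Tcf15 (0.59 ± 0.14, adjusted p = 0.011) higher. The part of notochord cells in the Col2a1 value was not tested.

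In the Oct4 line the responses at the 2 stages were compared as an interaction over all members that passed the filter. It uses the same E7.5 pools that gave the E7.5 calls, so it is no separate test of those calls. In the interaction of stage and induction 6 of 33 tested members passed, all with a higher response at E9.5, where 6.69% of all genes were called in either direction. Col1a1, at 116, 189.6 and 165 CPM in control and 211, 202 and 166 CPM in induced E9.5 pools, differed by 1.81 ± 0.24, adjusted p = 0.00051. Col4a5 (59.6, 53.1 and 49.2 CPM in control and 59.0, 61.0 and 56.8 CPM in induced pools) and Col4a6 (25.5, 23.9 and 26.9 CPM in control and 30.05, 34.0 and 27.3 CPM in induced pools) differed by 1.80 ± 0.25, adjusted p = 0.00045 and 1.80 ± 0.25, adjusted p = 0.00043. For Col24a1, at 2.39, 2.54 and 2.18 CPM in control and 3.19, 3.52 and 3.19 CPM in induced pools, the difference was 1.60 ± 0.33, adjusted p = 0.0082, and for Col5a1, at 107, 119 and 105 CPM in control and 114, 110.0 and 111 CPM in induced pools, 1.10 ± 0.15, adjusted p = 0.00029. Col1a2, at 194, 211 and 171 CPM in control and 184, 165 and 175 CPM in induced pools, differed by 0.82 ± 0.20, adjusted p = 0.023 and was the call of the 6 that was lost in fits with a pool left out. Col2a1, lower at both stages, did not pass (0.53 ± 0.26, adjusted p = 0.31). The doxycycline schedule differed between the stages, so stage and length of induction cannot be told apart.

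Nanog induction at E9.5 was followed by more collagen than in the Nanog line controls. Of 29 tested members 12 were called higher and 0 lower (0 lower also by DESeq2; 14 with an unadjusted p under 0.05 in either direction), beside 15.4% of all genes called higher and 13.0% called lower. The median member changed by 0.32 and the median gene by 0.0037, and the sum of the 41 genes went from 1453 and 1426 to 1680.4, 1868 and 1721 CPM. Col18a1 was at 221 and 212 CPM in control and 324, 384 and 335 CPM in induced pools (0.71 ± 0.072, adjusted p = 6.9e-06). Col5a1 was at 71.5 and 68.7 CPM in control and 100.5, 113 and 101 CPM in induced pools (0.61 ± 0.074, adjusted p = 3.7e-05) and Col2a1 at 188 and 210.4 CPM in control and 264, 316 and 242 CPM in induced pools (0.49 ± 0.11, adjusted p = 0.016). None of the 3 groups of induced pools overlapped its controls.

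The other called members were less abundant or changed less. Col11a2 was at 4.13 and 3.58 CPM in control and 6.97, 8.33 and 5.26 CPM in induced pools (0.87 ± 0.23, adjusted p = 0.011), while Col11a1, its partner, was at 50.8 and 49.5 CPM in control and 48.6, 47.2 and 46.2 CPM in induced pools (-0.052 ± 0.078, adjusted p = 0.65). The FACITs Col14a1 (6.41 and 6.35 CPM in control and 7.55, 10.3 and 11.4 CPM in induced pools) and Col16a1 (4.01 and 4.62 CPM in control and 5.81, 7.51 and 7.43 CPM in induced pools) rose by 0.65 and 0.72. Col7a1, the anchoring fibril collagen that ties epithelium to dermis, went from 4.75 and 3.70 to 7.55, 7.02 and 5.26 CPM (0.68) and Col13a1 from 4.93 and 5.73 to 7.36, 8.82 and 8.88 CPM (0.68). Col27a1, Col4a6, Col23a1 and Col1a2 rose by 0.42, 0.42, 0.33 and 0.24. Col3a1, Col5a2 and Col4a5 changed by 0.024 ± 0.058, adjusted p = 0.80, 0.030 ± 0.065, adjusted p = 0.76 and 0.053 ± 0.095, adjusted p = 0.71, none past the threshold.

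The calls changed with the controls used. Against the 3 E9.5 control pools of the Oct4 line in place of the 2 of the Nanog line, 2 of the tested members were called and both were lower. Col2a1 then changed by -0.046, Col5a1 by -0.058, Col16a1 by -0.19, and Col1a2 by -0.31 (adjusted p = 0.029), each with the sign turned; Col18a1 changed by 0.17 (adjusted p = 0.14). DESeq2 called 5 members and a model over all 22 libraries 3, all higher, and with 1 Nanog line pool left out the count went down to 5 without control replicate 3, 6 without control replicate 2 and 7 without induced replicate 2. Col18a1 and Col5a1 were the calls kept in every one of those fits.

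The controls of the lines, which received no doxycycline, differed in collagen transcripts at E9.5. Of 32 tested members 10 were called lower in the Nanog line controls than in the Oct4 line controls and 0 higher. Of all genes, 25.6% were called in either direction. Counted in either direction the members (31.25%) lie near that share, and all 10 of their calls were lower. The median member differed by -0.33 and the median gene by -0.0063. Col18a1 was at 221 and 212 CPM in the Nanog and 313, 322 and 302 CPM in the Oct4 line controls (-0.54 ± 0.041, adjusted p = 2.7e-06), Col5a1 at 71.5 and 68.7 CPM in the Nanog and 107, 119 and 105 CPM in the Oct4 line controls (-0.67 ± 0.060, adjusted p = 9.8e-06), Col2a1 at 188 and 210.4 CPM in the Nanog and 304, 288 and 267 CPM in the Oct4 line controls (-0.53 ± 0.062, adjusted p = 0.00028) and Col1a2 at 139 and 126 CPM in the Nanog and 194, 211 and 171 CPM in the Oct4 line controls (-0.55 ± 0.090, adjusted p = 0.0071). The others were Col16a1, Col11a2, Col7a1, Col27a1, Col4a6 and Col3a1, with log2 differences of -0.90, -0.72, -0.67, -0.46, -0.42 and -0.28. In sum mesenchyme markers were at 434 to 446 CPM in the Oct4 and 437 to 449 CPM in the Nanog line controls, with 1 of 7 tested called higher in the Nanog line and 2 lower. Of the other markers, 2 of 6 tested for somites, 2 of 5 for parietal endoderm and 1 of 6 for notochord and node were called lower with 0 higher, and 1 of 6 endothelial markers was called in each direction. The part of these cells in the difference between the lines was not tested. This comparison shares its Nanog line controls with the Nanog induction, and line, litter and sequencing run cannot be told apart in it.

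**Figure D5:**
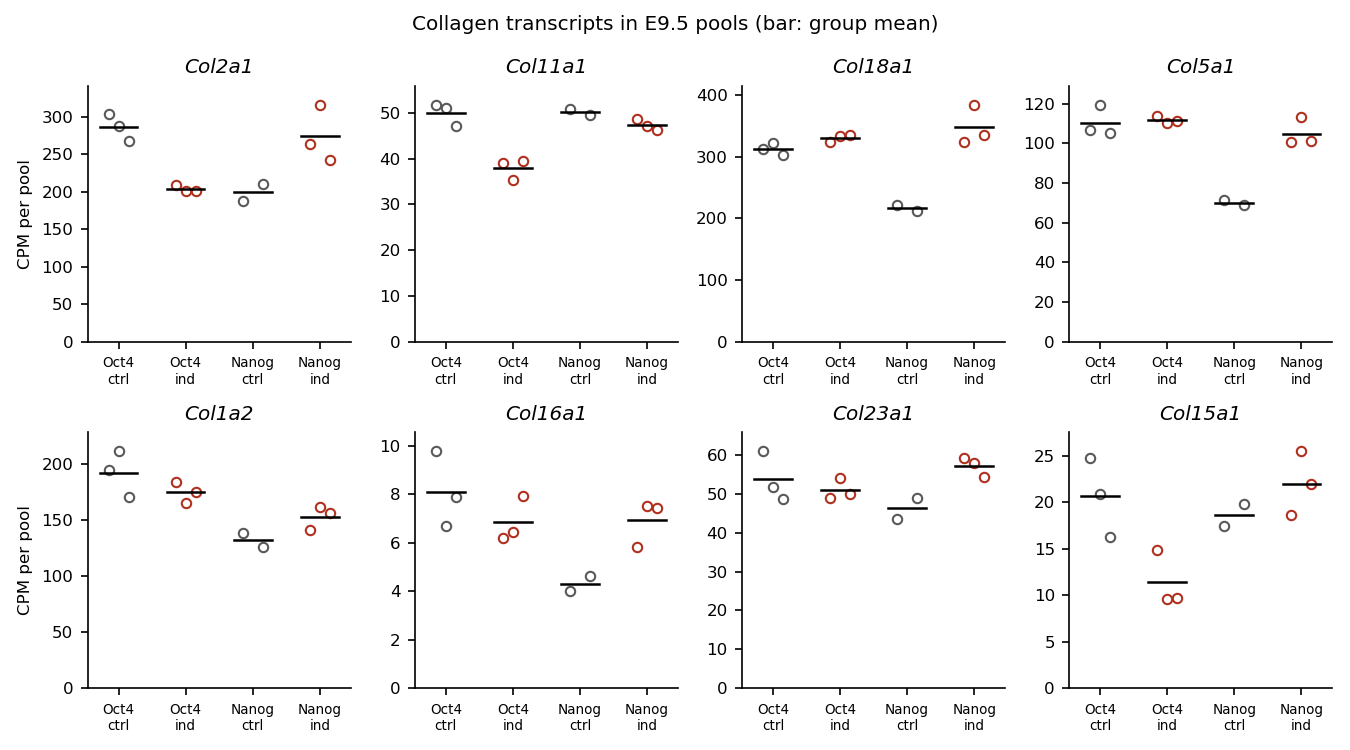
CPM of 8 collagen genes in each E9.5 pool (grey control, red induced, ctrl and ind on the axis; bars are group means, each axis starts at 0). Col18a1 and Col5a1 are lower in the 2 Nanog line control pools than in all other pools, and Col2a1 and Col11a1 are lower in the Oct4 induced than in the Oct4 control pools.

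As an interaction at E9.5, 10 of 32 tested members had a lower response in the Oct4 than in the Nanog line and 0 a higher one, with 13.5% of all genes called in either direction. Col2a1, called lower after Oct4 and higher after Nanog induction against the controls of each line, differed by -0.96 ± 0.13, adjusted p = 0.0015. Col18a1 (313, 322 and 302 CPM in Oct4 line control and 324, 333 and 335 in induced pools) differed by -0.61 ± 0.080, adjusted p = 3.2e-05 and Col5a1 by -0.57 ± 0.086, adjusted p = 0.00014. Col15a1, at 17.5 and 19.8 CPM in Nanog line control and 18.6, 25.5 and 21.9 in induced pools, differed by -1.07 ± 0.28, adjusted p = 0.027, and Col16a1, at 9.76, 6.67 and 7.88 CPM in control and 6.20, 6.45 and 7.92 CPM in induced pools in the Oct4 line, by -0.91 ± 0.28, adjusted p = 0.030. Col11a2 (6.13, 6.87 and 5.82 CPM in control and 7.18, 5.67 and 5.72 CPM in induced pools in the Oct4 line) differed by -0.85. Col27a1 was at 26.4, 26.0 and 24.8 CPM in control and 24.1, 24.0 and 26.9 CPM in induced pools of the Oct4 line and at 19.1 and 18.7 and then 26.7, 24.7 and 22.8 CPM in those of the Nanog line, a difference in response of -0.43. Col23a1 was at 60.9, 51.7 and 48.6 CPM in control and 49.0, 53.9 and 49.97 CPM in induced pools of the Oct4 line and at 43.5 and 48.9 and then 59.1, 57.8 and 54.2 CPM in those of the Nanog line, a difference in response of -0.39. Col1a2, at 139 and 126 CPM in control and 142, 162 and 156 CPM in induced pools in the Nanog line, differed by -0.35 and Col11a1 by -0.31. Col18a1, Col2a1 and Col5a1 were the 3 calls kept whichever pool was left out, and a model over all 22 libraries called 1 member. The Nanog responses rest on the Nanog line controls, which were lower than the Oct4 line controls for these 3 genes. Against the Oct4 line controls the Nanog induced pools changed by -0.046 for Col2a1 (edgeR, adjusted p = 0.88), 0.17 for Col18a1 and -0.058 for Col5a1.

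Within the Nanog line the response differed between stages for 9 of 32 tested members, 8 with a higher and 1 with a lower response at E9.5, where 12.8% of all genes were called. Col4a6, at 20.1 and 17.9 CPM in E9.5 control and 22.7, 26.3 and 25.7 CPM in induced pools, differed by 1.74 ± 0.23, adjusted p = 0.00039. Col5a1 differed by 1.61 ± 0.13, adjusted p = 9.2e-06, Col2a1 by 1.46 ± 0.21, adjusted p = 0.0011 and Col18a1 by 1.2 ± 0.14, adjusted p = 0.00019, each called lower at E7.5 and higher at E9.5. Col13a1, at 10.1 and 10.8 CPM in E7.5 control and 6.79, 7.39 and 7.84 CPM in induced pools, differed by 1.2 ± 0.27, adjusted p = 0.011. Col9a1 (35.6 and 37.5 CPM in control and 30.01, 29.7 and 33.9 CPM in induced pools at E9.5) differed by 1.04 ± 0.22, adjusted p = 0.0093, Col27a1 (17.0 and 17.6 CPM in control and 14.4, 12.6 and 6.97 CPM in induced pools at E7.5) by 1.01 and Col23a1 (22.1 and 23.4 CPM in control and 15.4, 14.9 and 17.7 CPM in induced pools at E7.5) by 0.86. Col15a1 was the gene with the lower response at E9.5 (-1.97 ± 0.49, adjusted p = 0.018). Of the 9 calls, 5 were kept whichever pool was left out, and the count went down to 5 without E7.5 control replicate 3 and up to 14 without E7.5 induced replicate 3. Genes shorter than 80 bases took 31.3 to 36.8 CPM in the E7.5 control and 0.575 to 1.13 CPM in the E7.5 induced libraries, and 1.42 to 1.70 and 0.660 to 2.02 CPM in those of E9.5. Library difference and induction therefore cannot be told apart at E7.5 of this line, and the part of each in the difference between stages was not tested.

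After Nanog induction at E9.5, 7 of 17 tested endoplasmic reticulum genes rose and 0 fell, where 15.4% of all genes were called higher and 13.0% lower. They were led by the prolyl 3-hydroxylase gene Leprel2 (0.54 ± 0.12, adjusted p = 0.0034), the foldase Fkbp10 (0.39 ± 0.092, adjusted p = 0.0054), the lysyl hydroxylase Plod1 (0.38 ± 0.094, adjusted p = 0.0076) and Lepre1 (0.39 ± 0.10, adjusted p = 0.0082). Outside the cell 2 of 11 rose and 0 fell, near the share of all genes, the propeptidase Bmp1 (0.45 ± 0.081, adjusted p = 0.00094) and Pcolce (0.48 ± 0.099, adjusted p = 0.0024). The collagen uptake receptor Mrc2 (0.50 ± 0.073, adjusted p = 0.00019) and the membrane proteases Mmp14 (0.42 ± 0.075, adjusted p = 0.00081) and Mmp15 (0.55 ± 0.090, adjusted p = 0.00049) rose, and the integrin chain Itga2 fell (-1.0 ± 0.31, adjusted p = 0.023). In the Oct4 line at E9.5, where 4.69% of all genes were called higher and 4.61% lower, 0 of 17 endoplasmic reticulum genes were called by edgeR. There Adamts3 fell (-0.65 ± 0.12, adjusted p = 0.0017), Loxl2 rose (0.15 ± 0.045, adjusted p = 0.040) and the collagen receptor Ddr1 fell (-0.29 ± 0.063, adjusted p = 0.0065). Of the collagen-binding proteins Fn1 rose (0.35 ± 0.033, adjusted p = 1.6e-06) and Bgn fell (-0.36 ± 0.095, adjusted p = 0.020). Of 7 tested mesenchyme markers 1 rose and 1 fell in the Nanog line, and 2 of 5 parietal endoderm markers rose. Of the trophoblast list only Hand1 was tested, and it rose in both lines. That gene by itself is no measure of trophoblast tissue. In the Nanog line controls 5 of 17 endoplasmic reticulum and 3 of 11 extracellular genes were lower than in the Oct4 line controls, with 0 higher. Of all genes, 25.6% were called in either direction between these controls. Counted in either direction both lists lie near that share, and the share of all genes called lower alone is not given here.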

How the data were processed

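Whole-embryo RNA from 22 pools was sequenced on Illumina instruments, per the labels. The deposited values are expected counts per gene, which the authors made with RSEM 1.17 on NCBIM37, with cutadapt, Picard and limma also listed, per the submitters' processing notes; the order of steps and the strand setting are not given in the sources used here. RSEM divides reads among similar genes, so counts need not be whole. Gene names and lengths came from GENCODE M1, and 371 gene IDs had none.

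Counts were rounded and tested in R 4.3.3 with edgeR 4.0.16 (TMM scaling, filterByExpr, robust quasi-likelihood test), using the groups of each comparison. P-values were adjusted by Benjamini-Hochberg over all genes tested, with a threshold of 0.05. Standard errors are the log2 fold change divided by the root of F. Levels are TMM-scaled CPM. Replicates are separate pools, and each pair within a group differed by more than counting noise. The procedure was tested on simulated data. Alternatives were RLE scaling, no filter, DESeq2 1.42.0, 1 model over all libraries, other controls, a replicate block and leaving out each pool; the alternatives for the line controls, and the fits of the interactions with a pool left out, were added after seeing the data.

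The collagen genes, pathway lists and marker lists were chosen with earlier results of these data known. Values in every pool are given for at most 8 called members per induction with the largest change, the 6 highest per length in E9.5 controls, members called in an interaction, and their trimer partners. From other lists up to 4 called genes per direction are named, by lowest p, and a few further genes were chosen after their values were seen.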

Additional observations from a re-analysis of the deposited data

Results flagged for a closer look

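For 25 combinations of a collagen gene and a pair of inductions, the log2 fold change differed between the inductions by an edgeR interaction test with an adjusted p under 0.05. Between stages these were 6 of 33 tested members in the Oct4 line (6.69% of all genes) and 9 of 32 in the Nanog line (12.8%). Between factors they were 10 of 32 at E9.5 (13.5% of all genes) and 0 of 35 at E7.5 (0.204%). Between stages of the Oct4 line, as E9.5 minus E7.5, the difference was 1.81 for Col1a1, 1.80 for Col4a5, 1.80 for Col4a6, 1.60 for Col24a1, 1.10 for Col5a1 and 0.82 for Col1a2. Between stages of the Nanog line it was -1.97 for Col15a1, 1.74 for Col4a6, 1.61 for Col5a1, 1.46 for Col2a1, 1.2 for Col18a1, 1.2 for Col13a1, 1.04 for Col9a1, 1.01 for Col27a1 and 0.86 for Col23a1. Between factors at E9.5, as Oct4 minus Nanog, it was -1.07 for Col15a1, -0.96 for Col2a1, -0.91 for Col16a1, -0.85 for Col11a2, -0.61 for Col18a1, -0.57 for Col5a1, -0.43 for Col27a1, -0.39 for Col23a1, -0.35 for Col1a2 and -0.31 for Col11a1. The values in each pool stand in the report. The E9.5 Nanog line controls enter the Nanog line and the Oct4 minus Nanog differences alike. In those controls 10 of 32 tested collagen genes were called lower than in the Oct4 line controls and 0 higher. Of all genes, 25.6% were called in either direction between the same controls.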

How the results depend on the processing

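For single collagen genes 1307 values were recomputed, the fold changes of called members and the control levels of the 6 highest. Of these 1095 stayed the same: fold changes kept direction and call, or levels moved by under 1 SD. Another 197 fold changes kept the direction and lost the call, 6 reversed and 9 levels moved further. Fits that gave a gene no adjusted p, such as Col6a5 without Oct4 E7.5 control replicate 3, were not counted. The 6 reversals were all for Nanog at E9.5 against the Oct4 line controls: Col16a1 -0.19, Col1a2 -0.31, Col27a1 -0.043, Col2a1 -0.046, Col4a6 -0.0025 and Col5a1 -0.058. Against those controls 2 collagen genes were called at E9.5 and 11 at E7.5, in place of 12 and 6. With 1 model over all 22 libraries the counts were 0 for Oct4 at E9.5, 14 for Nanog at E7.5, 3 for Nanog at E9.5, 2 and 1 for Oct4 minus Nanog at E7.5 and E9.5, and 3 for the line controls at E9.5. DESeq2 called 4 for Oct4 and 5 for Nanog at E9.5. Without a filter on low counts, Oct4 at E9.5 had 6 and the line controls at E7.5 had 1. RLE normalization moved no count by over 1.5 times. The cause of these changes was not tested. With 1 pool left out, counts ran from 4 to 8 for Oct4 at E7.5, 2 to 6 for Oct4 at E9.5, 0 to 7 for Nanog at E7.5, 5 to 11 for Nanog at E9.5, 0 to 2 for Oct4 minus Nanog at E7.5, 3 to 11 for it at E9.5, 5 to 8 and 5 to 14 between stages of the Oct4 and Nanog lines, 0 to 2 for the line controls at E7.5, 7 to 12 for them at E9.5, and 30 to 31 and 20 to 22 for the Oct4 and Nanog stage comparisons. Where a Nanog group had 1 control pool left, that pool is assumed to vary like the other groups. With the replicate block, Oct4 at E7.5 had 11 calls, Nanog at E9.5 had 12, the stage comparisons 30 and 22, and the line controls 2 at E7.5 and 11 at E9.5. The numbers were not taken as pairs, since the deviations of same-numbered Oct4 E7.5 pools correlated by 0.140, 0.151 and 0.0148 and those of Nanog E9.5 pools by -0.038; each Oct4 E7.5 pool did correlate best with its own number, as a hint from the data and not the design. At 3 counts the floor was 0.0709 to 0.636 CPM, so changes in genes near or under it were not detectable at this depth.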
